A study of Mus musculus with 12 samples.

Results

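Glycolysis and the pentose phosphate pathway are described here through 35 genes, which were chosen by symbol as the transporters, enzymes and regulators of these pathways, in donor T cells of TCF-1 cKO and WT mice. All 35 were found among the 35906 genes of the tables, and all 35 passed the filter on low counts in each comparison. TCF-1 is a transcription factor of T cells encoded by Tcf7, and RNA of donor T cells was sequenced before (Pre-Tx) and at day 7 after (Post-Tx) an allogeneic transplant into BALB/c mice. The 12 libraries fall into 4 groups of 3, which are TCF-1 cKO Post-Tx, WT Post-Tx, TCF-1 cKO Pre-Tx and WT Pre-Tx, and the labels call the replicates of a group biological. TCF-1 cKO mice carry floxed Tcf7 alleles and a Cre recombinase driven by CD4, which acts in thymocytes that express CD4 and CD8 together and therefore removes the gene from CD4 and from CD8 T cells. WT donors kept Tcf7 intact, and Cre-only control mice were not analysed here. Mice were 8 to 12 weeks old. For the Post-Tx libraries, 1000000 CD3 donor T cells of either genotype were given to lethally irradiated BALB/c recipients. In the paper's transplant methods, recipients also received bone marrow of WT donor-strain mice, depleted of T cells. Per its results text, cells were recovered from the spleens by sorting on the donor marker H2Kb and on CD3, CD4 and CD8. Cells grown from WT marrow would carry H2Kb too, so this marker alone does not separate them from the T cell graft. Their part in the Post-Tx values was not tested. The Pre-Tx libraries came from sorted splenic cells of donors. The labels call all 12 libraries CD4 T cells, whereas the design text and the methods also name CD8 T cells for some of them.

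Glycolysis splits glucose into pyruvate and yields ATP and NADH, and lactate dehydrogenase then turns pyruvate into lactate and restores NAD+. The pentose phosphate pathway branches off after hexokinase, and its oxidative arm makes NADPH while its non-oxidative arm makes ribose phosphate for nucleotides. T cells that leave the resting state are known for taking up more glucose and turning more of it into lactate, and HIF-1 and MYC are known to switch on many of the genes.

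Total estimated counts per library ranged from 17103415 to 49486745. T cell markers (10 genes) were summed as CPM, the counts per 1000000 counts of a library, with no scaling factor. They came to 4181 to 4695 in TCF-1 cKO Post-Tx and 5832 to 6642 in WT Post-Tx libraries. Before transplant they came to 1204 to 1391 in TCF-1 cKO Pre-Tx and 2359.8 to 2647 in WT Pre-Tx libraries. The B cell markers (10 genes) came to 54.0 to 109 in TCF-1 cKO Post-Tx and 42.0 to 83.5 in WT Post-Tx libraries, but to 9234 to 9927 in TCF-1 cKO Pre-Tx and 7724 to 8859.6 in WT Pre-Tx libraries, so the Pre-Tx libraries of both genotypes went against their label by holding more B cell than T cell marker RNA. Cd8a was 71.35 to 81.6 and Cd4 65.4 to 86.5 CPM in TCF-1 cKO Pre-Tx libraries, and Cd8a 130.03 to 166 and Cd4 68.7 to 151 CPM in WT Pre-Tx libraries. Genes of olfactory receptors, which lymphocytes are not known to use, summed (1407 genes) to 4484 to 12030 CPM for TCF-1 cKO Post-Tx and 1087 to 3135 for WT Post-Tx libraries, and to 879 to 1549.7 in TCF-1 cKO Pre-Tx and 2532 to 7011 in WT Pre-Tx libraries. Tcf7 itself differed between TCF-1 cKO and WT by a log2 fold change of -0.66 ± 0.22 (SE) after transplant (adjusted p = 0.0669) and -0.04 ± 0.23 before it (adjusted p = 0.924, edgeR's quasi-likelihood test, n = 3 each). Its level was 109 to 146 CPM for TCF-1 cKO Post-Tx, 145 to 171 CPM for WT Post-Tx, 136 to 179 CPM for TCF-1 cKO Pre-Tx and 112 to 197 CPM for WT Pre-Tx libraries. Before transplant the genotypes overlapped, so the summed level of Tcf7 RNA did not by itself bear out the TCF-1 cKO label there. A level summed over all transcripts of the gene cannot tell whether the floxed part was removed. After transplant these unscaled values overlapped only at 145.63 CPM in a TCF-1 cKO and 145.37 CPM in a WT library. On the fitted scale Tcf7 was then lower in TCF-1 cKO cells without passing the test. The paper reports loss of TCF-1 in splenic CD4 T cells of TCF-1 cKO mice by flow cytometry, and genotyping of the mice by PCR. The genotype names below are those of the labels.

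The 35 genes together took 1.07, 0.933 and 0.888% of all TPM (transcripts per 1000000, a level per transcript length) for TCF-1 cKO Post-Tx and 1.33, 0.982 and 1.00% for WT Post-Tx libraries. They took 0.498, 0.535 and 0.570% for TCF-1 cKO Pre-Tx and 0.533, 0.681 and 0.610% for WT Pre-Tx libraries, so every Post-Tx library lay above every Pre-Tx library. Most of this came from 5 enzymes, Aldoa of the upper pathway, Gapdh, Eno1 and Pkm of the lower pathway and Ldha of lactate formation, which on the mean of the 12 libraries had the highest TPM of the 35 genes. Below them stood Taldo1 (439), Pgls (332), Gpi1 (289), Tkt (228) and Pgk1 (174 TPM on the mean of 12 libraries). The lowest were Tpi1 (2.48), Ldhb (3.73), Rpia (4.01) and Pfkm (4.39 TPM), as the plot of TPM by library shows. Tpi1 encodes triose phosphate isomerase, on which the whole pathway runs, and its level so far below its neighbours stands beside 1069 transcripts of the tables that were not matched to the annotation. No direction is therefore given for Tpi1.

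**Figure D1:**
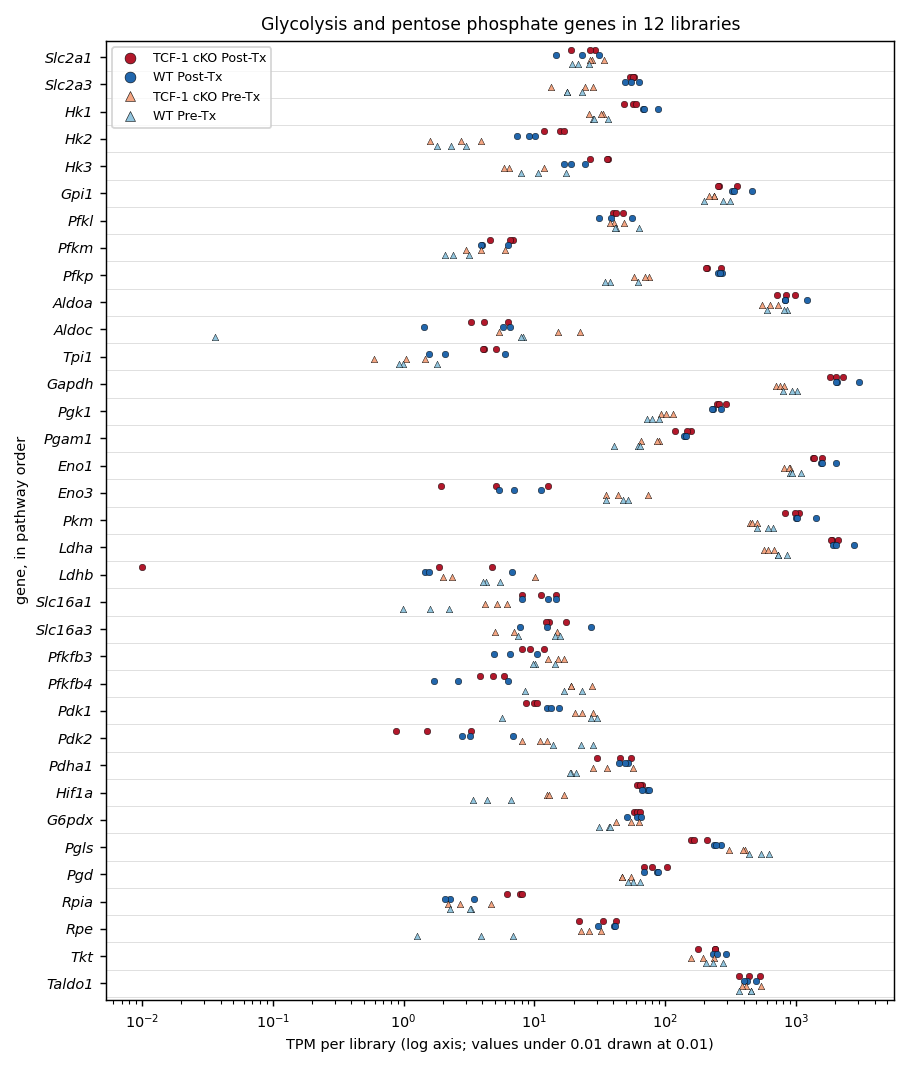
TPM of each of the 35 genes (rows, in pathway order) in each of the 12 libraries on a log axis, with circles for Post-Tx and triangles for Pre-Tx libraries, red for TCF-1 cKO and blue for WT. Gapdh, Ldha, Eno1, Aldoa and Pkm lie at the right, Hif1a and Pfkp have Post-Tx circles apart from the Pre-Tx triangles, and 1 Ldhb value near 0 is drawn at 0.01.

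The first question was which steps differed between Post-Tx and Pre-Tx cells of each genotype. In TCF-1 cKO cells 8 of the 35 genes were higher and 7 lower after transplant, where 14.2% of all genes tested were higher and 12.5% lower (adjusted p under 0.05, edgeR's quasi-likelihood test). In WT cells 11 were higher and 4 lower, where 11.6% of all genes were higher and 10.4% lower (in either direction 26.7% of all genes in TCF-1 cKO and 21.9% in WT cells). The median log2 fold change of the 35 genes was -0.11 in TCF-1 cKO cells, beside 0.36 over all genes tested, and 0.36 in WT cells, beside -0.41 over all genes. With upper-quartile scaling the median of all genes moved by 0.37 and -0.29, and the counts became 15 higher and 5 lower in TCF-1 cKO cells and 11 higher and 7 lower in WT cells, while the share of all calls that were higher was 73.2% in place of 53.2% in TCF-1 cKO and 36.5% in place of 52.8% in WT cells. Post-Tx and Pre-Tx libraries differ in day, host and cell makeup at once, with the B cell markers given above, and these cannot be told apart. In bulk libraries fewer cells of a type and less RNA per cell cannot be told apart either.

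At the entry of the pathway, Slc2a3, which encodes the high-affinity glucose transporter GLUT3, had 54.0, 58.2 and 56.4 TPM in TCF-1 cKO Post-Tx libraries, against 28.3, 13.4 and 24.4 TPM in TCF-1 cKO Pre-Tx libraries. In WT it had 63.4, 54.9 and 49.2 TPM after transplant and 23.0, 17.9 and 17.7 TPM before it. All 6 Post-Tx values lay above all 6 Pre-Tx values, and Slc2a3 rose by a log2 fold change of 0.83 ± 0.24 (SE) in TCF-1 cKO and 1.56 ± 0.25 in WT cells (adjusted p = 0.0194 and 0.000213, edgeR). In TCF-1 cKO cells the call of Slc2a3 was lost without Pre-Tx replicate 2 (0.62) and without Post-Tx replicate 1 (0.78) or 3 (0.82), and with voom and limma or no filter, with adjusted p of 0.000727 to 0.102 over its alternatives. Slc2a1, which encodes the basal transporter GLUT1, had 29.0, 26.5 and 19.2 TPM in TCF-1 cKO Post-Tx libraries and 34.0, 27.7 and 26.7 TPM in TCF-1 cKO Pre-Tx libraries. These groups overlapped, since the highest Post-Tx value exceeded 2 of the Pre-Tx values, and the fitted fall of 0.82 ± 0.29 in TCF-1 cKO cells (adjusted p = 0.0469) was lost with upper-quartile scaling (log2 fold change -0.44, adjusted p = 0.245, within a range of 0.0255 to 0.245 over its alternatives), and held in 1 of 6 fits with 1 library left out, that without Post-Tx replicate 1. In WT cells the value for Slc2a1 was -0.40 ± 0.29.

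Hexokinases trap glucose in the cell as its phosphate, and Hk1, Hk2 and Hk3 had positive log2 fold changes in both genotypes. The isoforms that passed were not the same in the genotypes, but none of them passed in the interaction described below. Hk2, the inducible isoform, had 15.7, 17.0 and 11.8 TPM in TCF-1 cKO Post-Tx libraries, against 1.58, 2.77 and 3.94 TPM in TCF-1 cKO Pre-Tx libraries, and rose by 2.18 ± 0.56 on the log2 scale (adjusted p = 0.0101, edgeR). In WT libraries Hk2 had 7.43, 9.14 and 10.2 TPM after transplant and 2.98, 2.32 and 1.79 TPM before it, without overlap, but its log2 fold change of 1.34 ± 0.55 missed the threshold (adjusted p = 0.0877). Hk1, the isoform found in most tissues, rose in WT cells by 0.99 ± 0.23 (adjusted p = 0.00553) and had a value of 0.25 ± 0.23 in TCF-1 cKO cells, with Pre-Tx levels of 33.8, 26.3 and 32.6 TPM in TCF-1 cKO and 36.6, 28.0 and 28.8 TPM in WT libraries. Hk3, best known from myeloid cells, had 36.3, 26.6 and 35.7 TPM in TCF-1 cKO Post-Tx and 6.38, 5.88 and 11.9 TPM in TCF-1 cKO Pre-Tx libraries, and rose by 1.42 ± 0.35 (adjusted p = 0.00769), with 0.37 ± 0.34 in WT cells. Gpi1, the isomerase of the next step, had 356, 258 and 255 TPM in TCF-1 cKO Post-Tx and 236, 235 and 218 in TCF-1 cKO Pre-Tx libraries, and in WT 462, 326 and 337 TPM after and 197, 276 and 315 TPM before transplant. The TPM did not overlap within a genotype, but its fitted log2 fold change was -0.15 ± 0.25 in TCF-1 cKO and 0.09 ± 0.25 in WT cells. The summed myeloid markers (9 genes) were 1152 to 2094 (TCF-1 cKO Post-Tx) and 3043 to 3442 CPM (TCF-1 cKO Pre-Tx), and 4 of the 9 were lower after transplant. Much of the sum was Lyz2, at 191 to 571 CPM in Post-Tx and 1728 to 2038 CPM in Pre-Tx libraries of TCF-1 cKO, while S100a8 was 208 to 522 CPM in the Post-Tx and 199.5 to 439 CPM in the Pre-Tx libraries and overlapped, and their part in the rise of Hk3 was not tested.

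Phosphofructokinase is the committed step of glycolysis. Its platelet-type isoform Pfkp (chromosome 13, 6579768 to 6648777, minus strand, GENCODE M21 on GRCm38) had 266, 210.0 and 204 TPM in TCF-1 cKO Post-Tx and 74.8, 58.3 and 70.1 TPM in TCF-1 cKO Pre-Tx libraries. In WT it had 273, 252 and 262 TPM after transplant and 38.0, 61.7 and 35.01 TPM before it, so that the Post-Tx libraries stood well clear of the Pre-Tx libraries in both genotypes. The log2 fold changes of Pfkp were 1.15 ± 0.25 in TCF-1 cKO and 2.18 ± 0.26 in WT cells (adjusted p = 0.0038 and 1.18e-05, edgeR). The liver-type isoform Pfkl, with 31.2 to 63.3 TPM over the 12 libraries, and the muscle-type Pfkm, with 2.08 to 6.90 TPM, passed the test in neither genotype. Pfkfb3 and Pfkfb4 encode the enzymes that make and remove fructose 2,6-bisphosphate, the activator of phosphofructokinase. Pfkfb4 had 3.83, 4.84 and 5.85 TPM in TCF-1 cKO Post-Tx against 19.0, 27.5 and 18.9 TPM in TCF-1 cKO Pre-Tx libraries, and fell by 3.12 ± 0.54 in TCF-1 cKO and 2.70 ± 0.53 in WT cells on the log2 scale. Pfkfb3 fell by 0.96 ± 0.34 in TCF-1 cKO cells (adjusted p = 0.0452), with -0.65 ± 0.34 in WT cells (adjusted p = 0.171). With 1 library left out the call of Pfkfb3 held in 1 of 6 fits, that without Post-Tx replicate 1, and its values ran from -1.28 to -0.58 with adjusted p of 0.00949 to 0.191 over its alternatives.

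Among the enzymes of the payoff phase, Gapdh had 2299, 2021 and 1815 TPM in TCF-1 cKO Post-Tx and 699, 756 and 815 TPM in TCF-1 cKO Pre-Tx libraries. The WT libraries had 3018, 2079 and 2032 TPM in Post-Tx and 796, 1029.6 and 937 TPM in Pre-Tx libraries, and all 6 Post-Tx values lay above all 6 Pre-Tx values. The means were 2.70 times higher after transplant in TCF-1 cKO and 2.58 times higher in WT cells in TPM, which carry no library factor, and the fitted log2 fold changes were 0.90 ± 0.22 and 0.96 ± 0.22 (adjusted p = 0.00827 and 0.00513, edgeR). Gapdh has many processed copies in the mouse genome. The 187 copies that share sequence words with it held 31.8 to 44.3% of the counts of Gapdh and copies together, and adding them to Gapdh left the call in place in both genotypes. Pgk1, the first ATP-making kinase of the pathway, had 294, 251 and 260.1 TPM in TCF-1 cKO Post-Tx and 93.9, 114 and 102 TPM in TCF-1 cKO Pre-Tx libraries. The WT libraries had 268, 234 and 229 TPM in Post-Tx and 72.9, 89.6 and 79.9 TPM in Pre-Tx libraries, and the groups did not overlap. It rose by 0.84 ± 0.21 in TCF-1 cKO and 1.19 ± 0.21 in WT cells (adjusted p = 0.00862 and 0.000598, edgeR). In TCF-1 cKO cells the call of Pgk1 was lost without Pre-Tx replicate 1 (0.71) and held in 8 of the 9 other settings, with adjusted p up to 0.0557 over its alternatives. Pgam1, a mutase, rose in WT cells by 0.94 ± 0.23 (adjusted p = 0.00666) and had 0.28 ± 0.22 in TCF-1 cKO cells.

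Eno1, Pkm and Aldoa had higher mean TPM after transplant without passing the test on the fitted scale. Eno1, the enolase of most tissues, had 1578, 1347 and 1384 TPM in TCF-1 cKO Post-Tx and 815, 895 and 892 TPM in TCF-1 cKO Pre-Tx libraries, and in WT 2038, 1554 and 1579.5 TPM after and 906, 1099.7 and 942 TPM before transplant. The groups did not overlap, yet the log2 fold change of Eno1 was 0.20 ± 0.20 in TCF-1 cKO and 0.41 ± 0.20 in WT cells (adjusted p = 0.453 and 0.146, edgeR). The muscle-type enolase Eno3 moved the other way and was the largest fall of the 35 genes in both genotypes. It had 1.94, 12.8 and 5.06 TPM in TCF-1 cKO Post-Tx and 35.5, 73.8 and 43.3 TPM in TCF-1 cKO Pre-Tx libraries. In WT it had 11.3, 5.37 and 7.06 TPM after transplant and 35.5, 47.7 and 51.8 TPM before it, and the falls were 3.87 ± 0.53 and 3.06 ± 0.51 on the log2 scale (adjusted p = 6.28e-05 in TCF-1 cKO and 0.00035 in WT cells). Pkm had 1055, 979 and 833 TPM in TCF-1 cKO Post-Tx and 444, 464 and 505 TPM in TCF-1 cKO Pre-Tx libraries, and in WT 1438, 1000.0 and 1024 TPM after and 505, 675 and 614 TPM before transplant. These did not overlap, and the log2 fold changes of Pkm were 0.49 ± 0.22 in TCF-1 cKO and 0.55 ± 0.22 in WT cells (adjusted p = 0.0958 and 0.0762). Aldoa, the aldolase that splits fructose 1,6-bisphosphate, had 991, 847 and 716 TPM in TCF-1 cKO Post-Tx and 553, 629.9 and 731 TPM in TCF-1 cKO Pre-Tx libraries, and in WT 1212, 821 and 829 TPM after and 603, 862 and 806 TPM before transplant. Aldoa had a log2 fold change of -0.11 ± 0.24 in TCF-1 cKO and -0.07 ± 0.24 in WT cells, and its Post-Tx and Pre-Tx TPM overlapped in both genotypes.

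Ldha, which makes lactate, had 2091, 1899.5 and 1873 TPM in TCF-1 cKO Post-Tx and 569, 613 and 676 TPM in TCF-1 cKO Pre-Tx libraries. In WT it had 2796, 1916 and 2046 TPM after transplant and 727, 854 and 726 TPM before it. No Pre-Tx value came near the Post-Tx values, and the log2 fold changes of Ldha were 1.13 ± 0.21 in TCF-1 cKO and 1.16 ± 0.21 in WT cells (adjusted p = 0.00111 and 0.00077, edgeR). Its sister gene Ldhb was between 1.46 and 10.1 TPM in 11 libraries and close to 0 in TCF-1 cKO Post-Tx replicate 1. Slc16a1 and Slc16a3 encode the lactate carriers MCT1 and MCT4. Slc16a1 rose in WT cells by 2.46 ± 0.38 (adjusted p = 0.000178) and had 0.59 ± 0.36 in TCF-1 cKO cells, whereas Slc16a3 had 0.11 ± 0.48 in WT and 0.21 ± 0.48 in TCF-1 cKO cells.

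The genes that link pyruvate to the mitochondria were lower or higher by isoform. Pdk1 and Pdk2 encode kinases that switch off pyruvate dehydrogenase. Pdk2 had 0.883, 3.26 and 1.52 TPM in TCF-1 cKO Post-Tx and 8.05, 11.1 and 12.6 TPM in TCF-1 cKO Pre-Tx libraries, and fell by 3.39 ± 0.65 in TCF-1 cKO and 2.70 ± 0.63 in WT cells on the log2 scale (adjusted p = 0.00142 and 0.00502, edgeR). Pdk1 fell in TCF-1 cKO cells by 2.05 ± 0.42 (adjusted p = 0.00247), with -0.82 ± 0.41 in WT cells, where 1 Pre-Tx library had 5.68 TPM and the others had 30.2 and 27.2. Pdha1, the catalytic subunit of pyruvate dehydrogenase, rose in WT cells by 1.13 ± 0.29 (adjusted p = 0.0099) and had -0.39 ± 0.29 in TCF-1 cKO cells. Hif1a, the oxygen-regulated subunit of HIF-1, rose by 1.62 ± 0.35 in TCF-1 cKO and 3.996 ± 0.39 in WT cells (adjusted p = 0.00348 and 1.25e-06).

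Of the 7 pentose phosphate genes, Pgls, the lactonase of the oxidative arm, passed the test in both genotypes and was lower after transplant. It had 208, 158 and 166 TPM in TCF-1 cKO Post-Tx against 307, 411 and 393 TPM in TCF-1 cKO Pre-Tx libraries. In WT it had 266, 236 and 246 TPM in Post-Tx against 438, 618 and 542 TPM in Pre-Tx libraries, and every Post-Tx value was below every Pre-Tx value. Its annotated neighbour Fam129c overlaps it on the same strand and shares 19.5% of the words of Pgls, and had 60 to 150 counts in TCF-1 cKO Post-Tx and 47 to 289 in WT Post-Tx libraries, against 3523 to 4704 in TCF-1 cKO Pre-Tx and 1306 to 2261 in WT Pre-Tx libraries, and its part in the fall of Pgls was not tested. The falls of Pgls were 1.55 ± 0.24 in TCF-1 cKO and 1.47 ± 0.24 in WT cells (adjusted p = 0.000231 and 0.000318, edgeR). Rpe, an epimerase of the non-oxidative arm, rose in WT cells by 2.51 ± 0.46 (adjusted p = 0.000869) and had -0.29 ± 0.44 in TCF-1 cKO cells. G6pdx, the entry enzyme, and Pgd, the second NADPH-making enzyme, had log2 fold changes of -0.31 to 0.36 over both genotypes, and Tkt and Taldo1, which exchange sugar fragments, had -0.53 to -0.31. Taldo1 had 532, 366 and 435 TPM in TCF-1 cKO Post-Tx, 424, 400.2 and 493 in WT Post-Tx, 413, 389 and 546 in TCF-1 cKO Pre-Tx and 365, 454 and 453 in WT Pre-Tx libraries, all 4 groups overlapping. Tkt had 242, 242 and 178 TPM in TCF-1 cKO Post-Tx, 293, 234 and 249.04 in WT Post-Tx, 159, 194 and 235 in TCF-1 cKO Pre-Tx and 207, 276 and 232 in WT Pre-Tx libraries, and these groups overlapped too. The pentose phosphate genes took 0.116, 0.0963 and 0.0964% of all TPM in TCF-1 cKO Post-Tx and 0.103, 0.114 and 0.129% in TCF-1 cKO Pre-Tx libraries, so these groups overlapped.

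**Figure D2:**
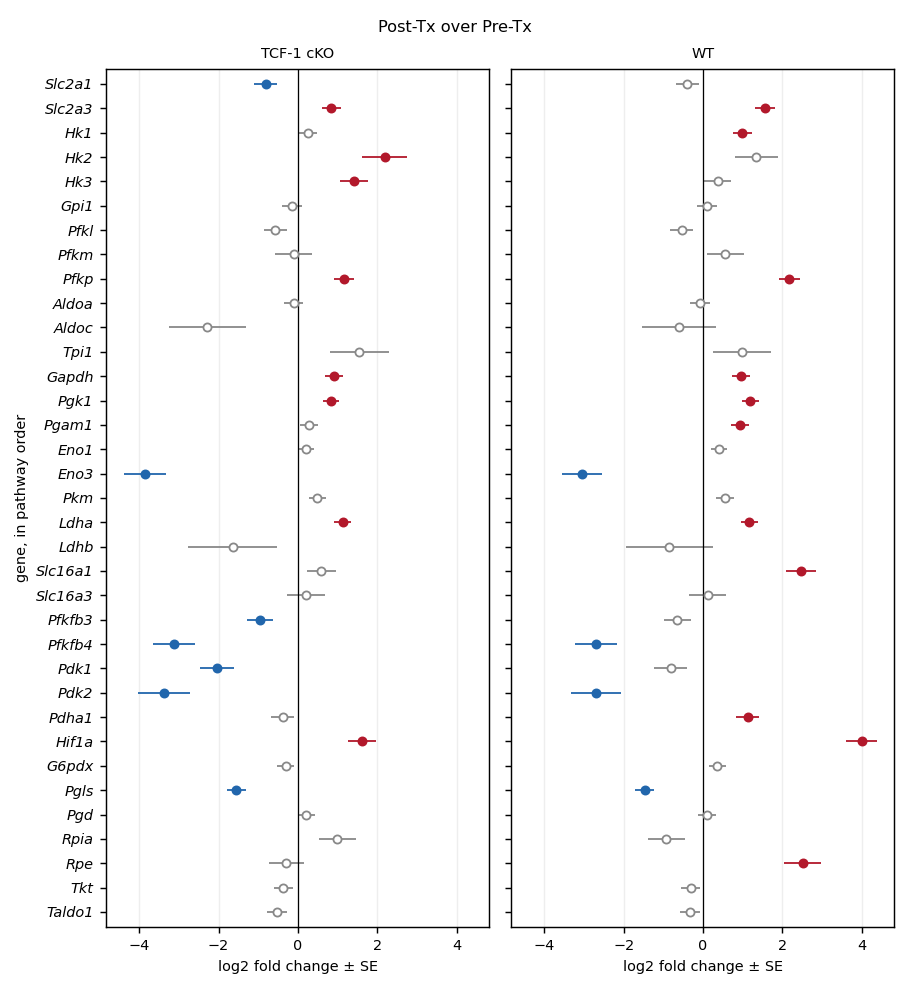
Log2 fold change of Post-Tx over Pre-Tx with its SE for the 35 genes, in TCF-1 cKO cells at the left and WT cells at the right (n = 3 libraries each). Filled red points were higher and filled blue points lower at an adjusted p under 0.05, and open grey points did not pass, with Hif1a at 1.62 and 3.996 and Eno3 at -3.87 and -3.06.

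A ratio of genes within a library does not depend on how libraries are scaled, nor does the share of a transcript in its gene. Most ratios paired isoforms of an enzyme or carrier, while G6pdx to Hk1 paired different enzymes, and the Pkm M2 share is given below. Of 33 tests over these 11 measures, 8 passed, and all 8 were differences between Post-Tx and Pre-Tx libraries (two-sided exact permutation test, labels exchanged within genotype, adjusted over the 33 tests). The log2 ratio of Pfkp to Pfkl was 2.48, 2.38 and 2.27 in TCF-1 cKO Post-Tx and 2.29, 3.01 and 2.75 in WT Post-Tx libraries, against 0.87, 0.61 and 0.53 in TCF-1 cKO Pre-Tx and -0.15, -0.04 and -0.23 in WT Pre-Tx libraries. Pfkl was thus close to or above Pfkp in WT Pre-Tx libraries and far below it in all Post-Tx libraries. The mean difference of 2.26 had an exact p = 0.005, the smallest that the 400 arrangements allow (adjusted p = 0.033). The ratio of Slc2a3 to Slc2a1 rose by 1.60 on the log2 scale and that of Eno3 to Eno1 fell by 3.65, each with the same exact p (adjusted p = 0.033).

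The ratios Hk2 to Hk1 (difference 1.12, adjusted exact p = 0.0413), Ldha to Ldhb (2.98, adjusted exact p = 0.033), Pfkfb4 to Pfkfb3 (-1.54, adjusted exact p = 0.0413) and G6pdx to Hk1 (-0.57, adjusted exact p = 0.0413) also passed. These differences are means over both genotypes. Post-Tx and Pre-Tx libraries overlapped in WT for Hk2 to Hk1 and Pfkfb4 to Pfkfb3, and in TCF-1 cKO for G6pdx to Hk1. Ldhb was close to 0 in TCF-1 cKO Post-Tx replicate 1. The log2 ratio of Ldha to Ldhb there (14.35) thus rests on the 0.1 TPM added to each gene, beside 8.615 and 9.887 in the other TCF-1 cKO Post-Tx libraries. With 1 library left out, Hk2 to Hk1 passed in 7 of 12 tests (adjusted exact p up to 0.0707), Ldha to Ldhb in 6 (up to 0.0917), Pfkfb4 to Pfkfb3 in 7 (up to 0.0619) and G6pdx to Hk1 in 3 (up to 0.103), while Slc2a3 to Slc2a1, Pfkp to Pfkl and Eno3 to Eno1 passed in all 12. Between genotypes 3 libraries against 3 cannot give a p below 0.1, which no ratio passes. The groups did not overlap for 4 ratios, which are Hk2 to Hk1 and G6pdx to Hk1 after transplant (TCF-1 cKO minus WT 1.16 and 0.49 on the log2 scale) and Pfkp to Pfkl and Slc16a3 to Slc16a1 before it (0.81 and -2.25).

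Pkm, the pyruvate kinase gene on chromosome 9 (59656368 to 59679375, plus strand), makes its M2 or its M1 form by using 1 of a pair of mutually exclusive coding exons, and M2 is the form known from proliferating cells. Both exons are 167 bases long and share 103 positions (61.7%). They are shown because the M2 share below rests on them, in GENCODE M21 on GRCm38, with capitals at the positions where the 2 exons differ when laid side by side from their first base, and lie at chr9:59675568-59675734 (M2, in Pkm-201) and chr9:59675029-59675195 (M1, in Pkm-202).
M2 exon: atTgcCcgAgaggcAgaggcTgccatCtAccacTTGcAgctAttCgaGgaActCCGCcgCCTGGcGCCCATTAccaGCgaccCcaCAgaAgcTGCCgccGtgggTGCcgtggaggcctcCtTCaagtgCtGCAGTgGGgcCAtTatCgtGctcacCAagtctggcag
M1 exon: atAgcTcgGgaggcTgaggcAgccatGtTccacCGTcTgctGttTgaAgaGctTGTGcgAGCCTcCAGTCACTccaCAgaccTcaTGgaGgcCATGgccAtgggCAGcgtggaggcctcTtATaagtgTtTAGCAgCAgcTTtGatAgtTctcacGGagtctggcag

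Transcript Pkm-201, with the M2 exon, took 94.4, 95.4 and 93.4% of Pkm TPM in TCF-1 cKO Post-Tx and 94.3, 95.4 and 95.45% in WT Post-Tx libraries. It took 91.05, 92 and 89.0% in TCF-1 cKO Pre-Tx and 90.95, 90.1 and 90.3% in WT Pre-Tx libraries. M2 was the main form in all 12 libraries, and its share was 4.17 percentage points higher after transplant (exact permutation p = 0.005, adjusted p = 0.033), with no overlap of Post-Tx and Pre-Tx libraries. The M1 transcript had 46.8, 28.0 and 41.6 TPM in TCF-1 cKO Post-Tx and 31.8, 29.7 and 50.3 TPM in TCF-1 cKO Pre-Tx libraries, so that its level overlapped while that of the M2 transcript (779 to 997 TPM after and 404 to 449 TPM before transplant in TCF-1 cKO) did not. Between TCF-1 cKO and WT the M2 share differed by -0.62 points after and 0.23 points before transplant, within the spread of the libraries. The shares come from whole transcripts, whose ends also differ, and not from reads over the exons alone.

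**Figure D3:**
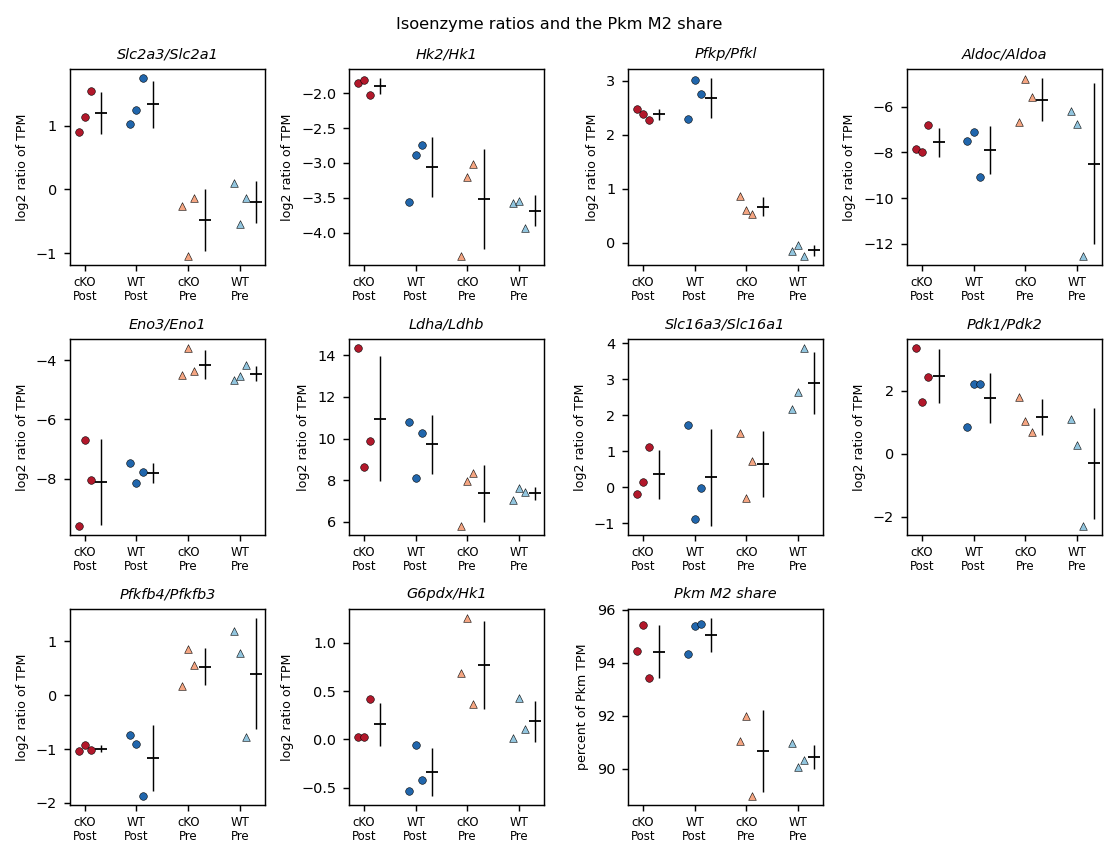
Log2 ratio of the TPM of 10 pairs of genes (0.1 TPM added to each) and the percentage of Pkm TPM in the M2 transcript, by library (points) with the group mean and SD (bars, n = 3). Pfkp to Pfkl and the M2 share separate all Post-Tx from all Pre-Tx libraries, at 2.27 or more against 0.87 or less and at 93.4% or more against 92% or less.

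Genes higher after transplant in both genotypes were Slc2a3, Pfkp, Gapdh, Pgk1, Ldha and Hif1a. Their promoters were searched for ACGTG on either strand (written CACGT on the other), the core of the HIF-1 site, which is also part of the E-box CACGTG used by MYC. Of the 35 genes, 34 matched a RefSeq promoter (GRCm38.p6, no entry for Slc2a3), with 49 windows of 250 bases before the start. The letters occurred in 17 of these windows (34.7%), against 16.6% of all 32851 windows, and CACGTG in 6 of the 49, against 6.02% of all windows. Among the 6 genes, Ldha, Pgk1 and Hif1a held a match, and their windows are shown with the matched letters in capitals, at chr7:46845554-46845803, chrX:106186850-106187099 and chr12:73907617-73907866, all on the plus strand.
Ldha: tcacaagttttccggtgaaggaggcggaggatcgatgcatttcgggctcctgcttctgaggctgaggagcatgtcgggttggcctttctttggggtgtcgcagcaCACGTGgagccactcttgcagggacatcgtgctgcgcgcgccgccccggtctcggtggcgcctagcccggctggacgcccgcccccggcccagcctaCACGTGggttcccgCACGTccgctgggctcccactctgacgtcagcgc
Pgk1: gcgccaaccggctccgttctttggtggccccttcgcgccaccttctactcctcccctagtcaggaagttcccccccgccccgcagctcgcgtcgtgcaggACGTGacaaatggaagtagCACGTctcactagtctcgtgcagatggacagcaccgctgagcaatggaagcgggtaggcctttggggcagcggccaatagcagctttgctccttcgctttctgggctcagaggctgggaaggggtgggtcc
Hif1a: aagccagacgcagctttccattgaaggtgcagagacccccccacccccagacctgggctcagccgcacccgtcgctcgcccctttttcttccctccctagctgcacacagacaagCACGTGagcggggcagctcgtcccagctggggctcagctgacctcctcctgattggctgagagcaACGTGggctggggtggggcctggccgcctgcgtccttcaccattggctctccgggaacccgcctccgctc
A further window of Ldha held no match. Of the genes lower after transplant in both genotypes, Pdk2 held a match, and Pfkfb4, Eno3 and Pgls did not. Of those lower in TCF-1 cKO cells alone, Pfkfb3 and Slc2a1 held a match and Pdk1 did not. Over the 34 matched genes, 14 held a match (41.2%), against 18.5% of all genes, so a match was not particular to genes that rose. A match of letters says nothing of binding in these cells.

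After transplant few of the genes passed between genotypes. Of the 35 genes, 0 were higher and 1 was lower in TCF-1 cKO than in WT cells, where 3.52% of all genes tested were higher and 3.13% lower (6.65% in either direction, adjusted p under 0.05, edgeR's quasi-likelihood test). At an unadjusted p under 0.05 there were 1 higher and 11 lower, and DESeq2 called 1 higher and 4 lower and voom with limma on TPM 0 and 0. With a replicate block 1 was higher and 11 lower, where 16.9% of all genes were called. The median log2 fold change was -0.39, beside 0.09 over all genes, and 4 of the 35 genes had a positive value. This offset depended on scaling, since upper-quartile factors moved all genes by 0.28 and the median of the 35 genes to -0.12.

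Hk1 (chromosome 10, 62268855 to 62379908, minus strand) was the gene that passed. It had 56.9, 59.8 and 48.3 TPM in TCF-1 cKO Post-Tx libraries, against 88.5, 67.9 and 68.8 TPM in WT Post-Tx libraries. The groups did not overlap, the mean was 0.733 times that of WT, and the log2 fold change was -0.92 ± 0.24 (adjusted p = 0.037, edgeR). The call for Hk1 was lost without TCF-1 cKO replicate 2 (log2 fold change -0.92) or 3 (-0.81), and without WT replicate 1 (-0.76) or 3 (-1.02), and its adjusted p ranged from 0.00812 to 0.161 over all alternatives. Pdk1 came next, with 9.95, 10.4 and 8.61 TPM in TCF-1 cKO Post-Tx and 12.6, 13.5 and 15.4 TPM in WT Post-Tx libraries, without overlap, and a log2 fold change of -0.97 ± 0.29 (adjusted p = 0.0503). Pgls had 208, 158 and 166 TPM in TCF-1 cKO Post-Tx and 266, 236 and 246 TPM in WT Post-Tx libraries, and -0.79 ± 0.24 (adjusted p = 0.0519). Rpia went the other way, with 1.44 ± 0.47 (adjusted p = 0.0622, edgeR) and no overlap in TPM.

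The most abundant enzymes did not pass the test between genotypes after transplant in the fit without a replicate block. The mean TPM of Gapdh was 2045 ± 243 in TCF-1 cKO and 2376 ± 556 in WT cells (SD, n = 3 each), that of Ldha 1955 ± 119 and 2253 ± 475, and that of Eno1 1436 ± 124 and 1724 ± 272. In each of these WT Post-Tx replicate 1, the deepest library, was the highest of all 6, and the other 2 WT libraries lay within or close to the TCF-1 cKO range. On the fitted scale Gapdh, Ldha, Eno1, Pkm and Aldoa had log2 fold changes of -0.61 to -0.51 (adjusted p = 0.104 to 0.168, edgeR). With a replicate block these enzymes passed as lower in TCF-1 cKO cells (adjusted p of 0.0101 to 0.0333, edgeR). The labels do not say that replicate numbers pair the libraries. Hk2 was on the other side, with 15.7, 17.0 and 11.8 TPM in TCF-1 cKO Post-Tx against 7.43, 9.14 and 10.2 TPM in WT Post-Tx libraries, which did not overlap, and a log2 fold change of 0.23 ± 0.34. Hk3 had 36.3, 26.6 and 35.7 TPM in TCF-1 cKO Post-Tx against 16.9, 24.6 and 18.9 TPM in WT Post-Tx libraries (0.45 ± 0.26), beside myeloid markers of 1152 to 2094 (TCF-1 cKO Post-Tx) and 843 to 1250.1 CPM (WT Post-Tx), whose part in the values of Hk3 was not tested. Of the T cell markers 8 of 10 were lower in TCF-1 cKO Post-Tx than in WT Post-Tx libraries and 5 of 8 erythroid markers were higher, and the part of this in the values of the 35 genes was not tested.

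Before transplant 4 of the 35 genes were higher in TCF-1 cKO than in WT cells and 1 was lower, where 8.52% of all genes tested were higher and 5.65% lower (14.2% in either direction, edgeR's quasi-likelihood test). The median log2 fold change was -0.22, beside -0.11 over all genes. The 4 genes were Hif1a, Slc16a1, Pdha1 and Rpe, and the lower one was Pgls. All 5 calls were lost without TCF-1 cKO replicate 1, where 2.72% of all genes were called, and without WT replicate 1, where 0.079% were called. With upper-quartile scaling, which moved all genes by -0.36, there were 2 higher and 11 lower, and the share of all calls that were higher was 23.5% in place of 60.1%.

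Hif1a (chromosome 12, 73901375 to 73947530, plus strand) had 16.9, 12.5 and 13.03 TPM in TCF-1 cKO Pre-Tx libraries, against 4.32, 6.68 and 3.42 TPM in WT Pre-Tx libraries. The lowest TCF-1 cKO value was above the highest WT value, the ratio of means was 2.95, and the log2 fold change was 1.97 ± 0.43 (adjusted p = 0.0176, edgeR). Hif1a was called in each of the 9 other settings and in 4 of 6 fits with 1 library left out, being lost when replicate 1 of TCF-1 cKO (1.85) or of WT (1.87) was left out, with log2 fold changes of 1.31 to 2.56 throughout. Its main protein-coding transcript, Hif1a-201, had 14.1, 9.27 and 11.4 TPM in TCF-1 cKO Pre-Tx and 1.26, 3.85 and 0.871 TPM in WT Pre-Tx libraries.

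Rpe (chromosome 1, 66700831 to 66719805, plus strand) had 32.5, 26.3 and 22.8 TPM in TCF-1 cKO Pre-Tx libraries, against 3.91, 6.92 and 1.26 TPM in WT Pre-Tx libraries. This was the widest gap of the 35 genes before transplant, with a ratio of means of 6.75 and a log2 fold change of 2.22 ± 0.52 (adjusted p = 0.0213, edgeR). Rpe was called in each of the 9 other settings and in 3 of 6 fits with 1 library left out, and was lost without TCF-1 cKO replicate 1 (2.10) or 2 (2.26) and without WT replicate 1 (2.10). Most of the Rpe TPM was assigned to Rpe-205, a transcript annotated for nonsense-mediated decay, with 22.5, 18.5 and 16.8 TPM in TCF-1 cKO Pre-Tx and 2.46, 4.21 and 0.661 TPM in WT Pre-Tx libraries. The coding transcript Rpe-201 showed the same order, with 7.98, 6.02 and 4.77 TPM in TCF-1 cKO Pre-Tx and 1.25, 2.13 and 0.597 TPM in WT Pre-Tx libraries. Some of its sequence (16.4% of the words of 31 bases) also occurs in other genes, the overlapping neighbour Kansl1l among them, and the kit does not keep the strand.

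Slc16a1 (chromosome 3, 104638668 to 104658462, plus strand) had 5.17, 6.16 and 4.20 TPM in TCF-1 cKO Pre-Tx and 1.59, 2.22 and 0.982 TPM in WT Pre-Tx libraries, with a log2 fold change of 1.48 ± 0.43 (adjusted p = 0.0423, edgeR). Pdha1 (chromosome X, 160122209 to 160138413, minus strand) had 57.3, 36.0 and 27.9 TPM in TCF-1 cKO Pre-Tx and 20.8, 19.1 and 18.7 TPM in WT Pre-Tx libraries, with 0.99 ± 0.30 (adjusted p = 0.0478). In both the groups did not overlap, and the TCF-1 cKO libraries of Pdha1 were widely spread while the WT libraries were close together. Pgls (chromosome 8, 71592176 to 71601092, plus strand) had 307, 411 and 393 TPM in TCF-1 cKO Pre-Tx and 438, 618 and 542 TPM in WT Pre-Tx libraries, and fell by 0.78 ± 0.24 on the log2 scale (adjusted p = 0.0483). Pdha1 overlaps Map3k15 and Pgls overlaps Fam129c in the annotation, and 15.8% and 19.5% of their words of 31 bases occur in other genes. Both Pdha1 and Slc16a1 lost the call with upper-quartile scaling (log2 fold changes 0.61 and 1.13), with adjusted p between 0.0161 and 0.166 for Pdha1 and between 0.00379 and 0.127 for Slc16a1 over their alternatives. With 1 library left out, Slc16a1 passed in 1 of 6 fits (without WT replicate 2), Pdha1 in 1 (without TCF-1 cKO replicate 3) and Pgls in 0, and Pgls had adjusted p of 0.012 to 0.178 over its alternatives.

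Ldha, Pkm, Eno1 and Gapdh were lower on the mean in TCF-1 cKO Pre-Tx libraries without passing the test, whereas Pgk1 and Pgam1 were higher on the mean. Pgk1 had 93.9, 114 and 102 TPM in TCF-1 cKO Pre-Tx and 72.9, 89.6 and 79.9 TPM in WT Pre-Tx libraries, and Pgam1 had 90.5, 86.4 and 65.5 TPM in TCF-1 cKO Pre-Tx and 62.3, 64.7 and 40.8 TPM in WT Pre-Tx libraries. Neither overlapped in TPM, and their log2 fold changes were 0.10 ± 0.22 and 0.30 ± 0.23 (adjusted p = 0.77 and 0.382, edgeR). Ldha had 569, 613 and 676 TPM in TCF-1 cKO Pre-Tx and 727, 854 and 726 TPM in WT Pre-Tx libraries, without overlap, and a log2 fold change of -0.58 ± 0.19 (adjusted p = 0.0581, edgeR). Pkm had 444, 464 and 505 TPM in TCF-1 cKO Pre-Tx and 505, 675 and 614 TPM in WT Pre-Tx libraries, and -0.60 ± 0.20 (adjusted p = 0.0623). Pdk2 had 8.05, 11.1 and 12.6 TPM in TCF-1 cKO Pre-Tx and 13.9, 22.6 and 28.0 TPM in WT Pre-Tx libraries, and -1.22 ± 0.38 (adjusted p = 0.0515). Ldha, Pkm and Pdk2 passed with upper-quartile scaling. The summed B cell markers were 9234 to 9927 for TCF-1 cKO Pre-Tx and 7724 to 8859.6 CPM for WT Pre-Tx libraries, the T cell markers 1204 to 1391 for TCF-1 cKO and 2359.8 to 2647 CPM for WT, and the olfactory receptor genes 879 to 1549.7 for TCF-1 cKO and 2532 to 7011 CPM for WT. Of the listed markers, 4 of 10 B cell and 2 of 5 NK cell genes were higher and 6 of 10 T cell genes lower in TCF-1 cKO Pre-Tx, and the part of this in the calls was not tested.

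**Figure D4:**
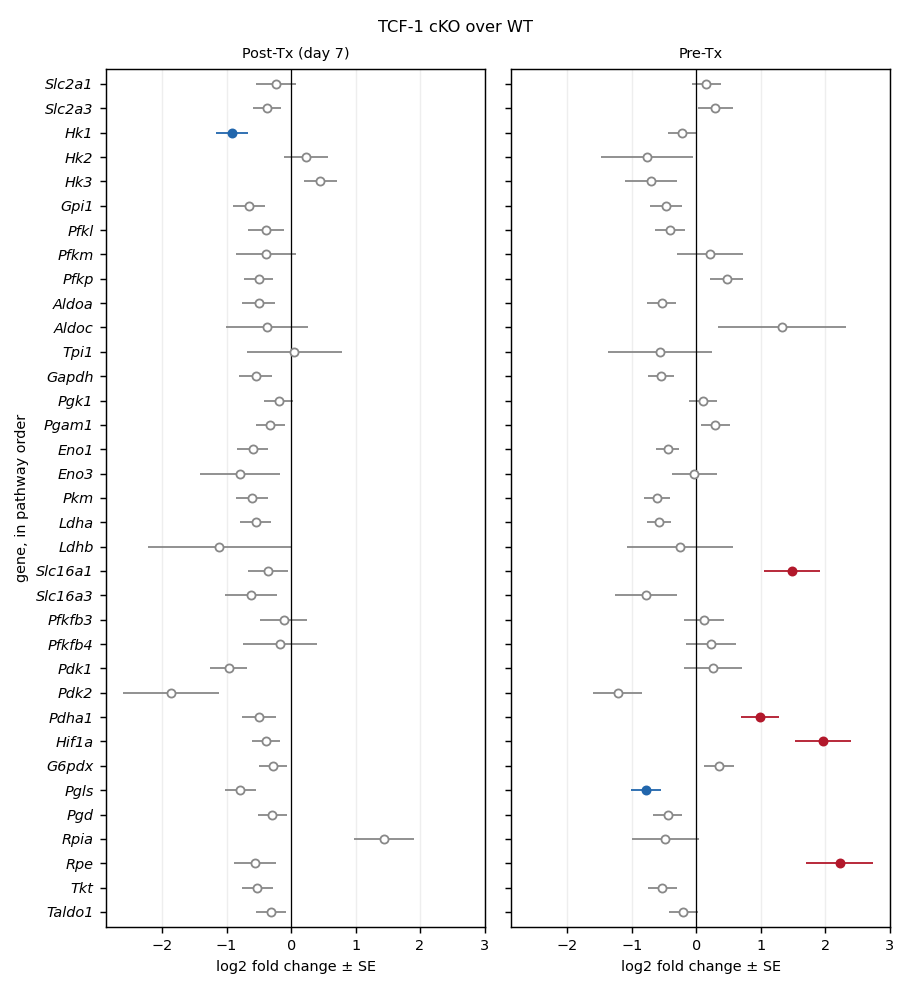
Log2 fold change of TCF-1 cKO over WT with its SE for the 35 genes, Post-Tx at the left and Pre-Tx at the right (n = 3 libraries each). Filled red points were higher and filled blue points lower at an adjusted p under 0.05, with Hk1 at -0.92 after transplant and Rpe at 2.22 and Pgls at -0.78 before it.

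Whether the genotype difference itself changed with transplant was tested as an interaction over all 12 libraries. Of the 35 genes, 1 had a positive and 5 a negative interaction, where 17.1% of all genes tested were positive and 11.5% negative (28.6% in either direction, edgeR's quasi-likelihood test). A negative value means that TCF-1 cKO over WT was lower after than before transplant. The strongest were Hif1a (-2.37 ± 0.49 on the log2 scale, adjusted p = 0.00476) and Rpe (-2.80 ± 0.63, adjusted p = 0.00672). Both kept the call in all 8 other settings and in all 12 fits with 1 library left out, with values of -3.06 to -1.75 for Hif1a and -3.50 to -2.16 for Rpe.

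In levels, Hif1a had 66.7, 61.5 and 64.2 TPM in TCF-1 cKO Post-Tx and 72.7, 75.8 and 66.1 TPM in WT Post-Tx libraries, which overlapped, and the WT Pre-Tx libraries were the low corner, with a mean that WT Post-Tx libraries exceeded 14.9 times. Rpe had 33.5, 22.1 and 42.2 TPM in TCF-1 cKO Post-Tx and 40.7, 30.7 and 41.1 TPM in WT Post-Tx libraries. Libraries of TCF-1 cKO Pre-Tx were at 22.8 to 32.5 TPM, so that for Rpe 3 groups were alike in range and WT Pre-Tx stood apart. Slc16a1 had 14.6, 11.2 and 8.11 TPM in TCF-1 cKO Post-Tx and 8.09, 14.6 and 12.8 TPM in WT Post-Tx libraries, and its TCF-1 cKO Pre-Tx libraries, at 4.20 to 6.16 TPM, lay between these and the WT Pre-Tx libraries. Pdha1 had 55.4, 30.3 and 45.3 TPM in TCF-1 cKO Post-Tx and 44.6, 52.1 and 49.7 TPM in WT Post-Tx libraries, a range that its TCF-1 cKO Pre-Tx libraries shared and its WT Pre-Tx libraries did not. The interactions were -1.87 ± 0.52 for Slc16a1 (adjusted p = 0.0162) and -1.51 ± 0.41 for Pdha1 (adjusted p = 0.0145, edgeR), and both lost the call with upper-quartile scaling (-1.23 and -0.85), which moved all genes by 0.66.

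Pfkp had an interaction of -1.03 ± 0.35 (adjusted p = 0.0386, edgeR), which upper-quartile scaling took to -0.36 and which held in 5 of 12 fits with 1 library left out, with values of -1.40 to -0.36 and adjusted p of 0.00534 to 0.400 over its alternatives. Rpia (chromosome 6, 70765720 to 70792232, minus strand), the isomerase that yields ribose 5-phosphate, was the positive one, at 1.92 ± 0.67 (adjusted p = 0.0406). It had 7.71, 8.11 and 6.14 TPM in TCF-1 cKO Post-Tx and 2.25, 3.49 and 2.07 TPM in WT Post-Tx libraries, against 2.71, 4.68 and 2.21 TPM in TCF-1 cKO Pre-Tx and 3.29, 3.22 and 2.28 TPM in WT Pre-Tx libraries. Rpia was thus high in TCF-1 cKO Post-Tx libraries and alike in the other groups, but the call held in 2 of 12 fits with 1 library left out, those without TCF-1 cKO Pre-Tx replicate 2 and without WT Post-Tx replicate 2. Part of it lay in a retained-intron transcript, Rpia-203, with 3.58, 5.82 and 2.92 TPM in TCF-1 cKO Post-Tx and 0.543, 1.82 and 0.217 TPM in WT Post-Tx libraries. The olfactory receptor genes were also high in TCF-1 cKO Post-Tx libraries (4484 to 12030 CPM, against 1087 to 3135 CPM in WT Post-Tx), and their part in the Rpia value was not tested.

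**Figure D5:**
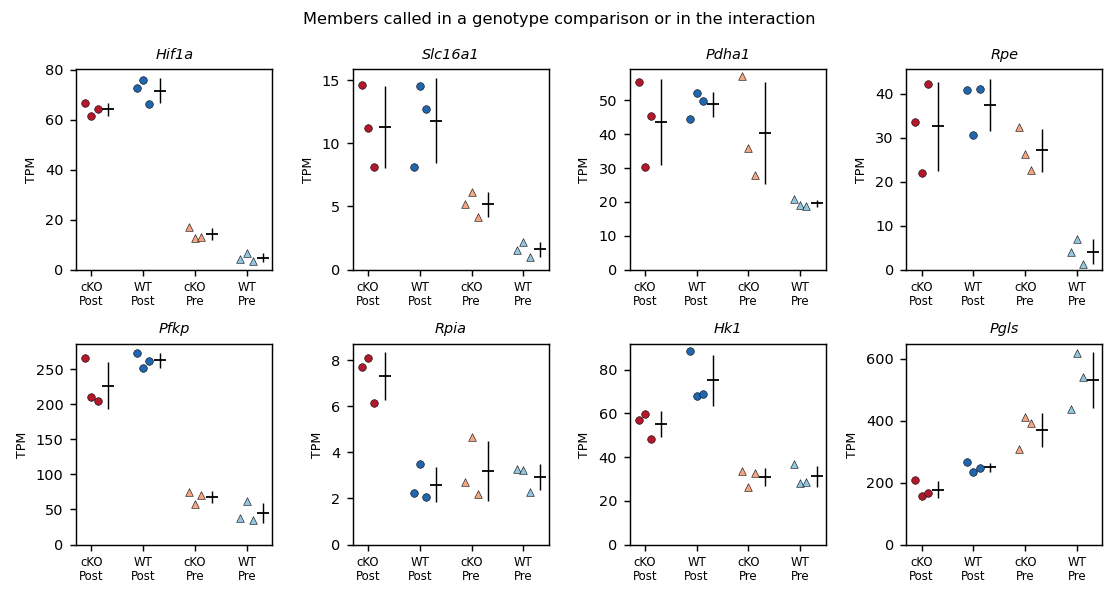
TPM by library (points) with the group mean and SD (bars, n = 3) for the 8 genes that passed in a genotype comparison or in the interaction, with axes that start at 0. In Hif1a, Slc16a1, Pdha1 and Rpe the WT Pre-Tx libraries are the lowest of the 4 groups, and Rpia is highest in TCF-1 cKO Post-Tx libraries at 6.14 to 8.11 TPM.

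A further 64 genes of neighbouring steps (other glucose carriers, fructose and glycerol enzymes, pyruvate dehydrogenase subunits, pyruvate carriers, ribose phosphate enzymes and regulators) were listed, of which 57 were tested after and 56 before transplant. After transplant 1 was higher and 3 lower in TCF-1 cKO than in WT cells (edgeR, adjusted p under 0.05), 4 of 57 beside 6.65% of all genes. Slc2a8, a glucose transporter of inner membranes, had 18.1, 15.7 and 13.5 TPM in TCF-1 cKO Post-Tx and 34.8, 35.2 and 28.1 TPM in WT Post-Tx libraries (log2 fold change -1.30 ± 0.28, adjusted p = 0.0232). Myc, which drives many glycolytic genes, had 35.4, 50.9 and 34.4 TPM in TCF-1 cKO Post-Tx and 68.0, 49.9 and 59.4 TPM in WT Post-Tx libraries, which overlapped, and fell by 0.89 ± 0.25 (adjusted p = 0.0414). Gpd2, of the glycerol phosphate shuttle, fell by 1.05 ± 0.30 (adjusted p = 0.0467), and Hkdc1, a hexokinase-like gene, was higher at levels of 0.476 to 1.15 TPM in TCF-1 cKO Post-Tx and at most 0.0139 TPM in WT Post-Tx libraries. These levels are close to 0, and the olfactory receptor genes were also high in TCF-1 cKO Post-Tx libraries. Their part in the Hkdc1 value was not tested.

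Before transplant 3 were higher and 1 lower in TCF-1 cKO cells, 4 of 56 beside 14.2% of all genes. Prps2, which makes the activated ribose for nucleotide synthesis, had 38.0, 31.5 and 18.9 TPM in TCF-1 cKO Pre-Tx and 3.83, 14.1 and 2.30 TPM in WT Pre-Tx libraries (log2 fold change 2.19 ± 0.47, adjusted p = 0.0164, edgeR). Dld, the E3 subunit of pyruvate dehydrogenase, had 30.1, 25.3 and 16.7 TPM in TCF-1 cKO Pre-Tx and 8.12, 7.61 and 3.71 TPM in WT Pre-Tx libraries (1.75 ± 0.39, adjusted p = 0.0179). Pdk3, a further pyruvate dehydrogenase kinase gene, rose by 1.07 ± 0.30 (adjusted p = 0.0389), and Khk, the fructose-phosphorylating ketohexokinase, fell by 1.02 ± 0.29 (adjusted p = 0.0378). For Post-Tx over Pre-Tx, of the 60 that were tested 4 were higher and 14 lower in TCF-1 cKO and 10 higher and 7 lower in WT cells, beside 26.7% and 21.9% of all genes called. In the interaction 2 of the 60 were positive and 9 negative, beside 28.6% of all genes called, with Prps2 at -2.86 ± 0.58 and Dld at -1.80 ± 0.53 (adjusted p = 0.00436 and 0.0217).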

How the data were processed

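RNA of 12 libraries of donor T cells was sequenced as paired ends from SMARTseq HT cDNA, which keeps no strand. The authors ran kallisto 0.46.2, per the labels, and deposited for each transcript an estimated count with no normalization and a TPM value. The labels name mm9, and the sources used here do not give the transcript release. According to the methods the authors then tested with voom and limma, whose values were not used. Here, 116428 of 117497 transcripts were matched by identifier to GENCODE M21 (GRCm38), and 1069 (0.282 to 0.386% of counts) were left out. Estimated counts were summed over 35906 genes and rounded, and 2 identifiers of Aldoa were joined.

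With R 4.3.3, edgeR 4.0.16 gave TMM factors, removed low counts (filterByExpr) and ran the quasi-likelihood test. The SE given with a log2 fold change of edgeR was derived from that test. It is the size of the fold change divided by the square root of its F value. Genotype was tested in the 6 libraries of a stage, and transplant and interaction in all 12, with Benjamini-Hochberg adjustment over all genes tested. A gene passed at an adjusted p under 0.05. Ratios used TPM with 0.1 TPM added. Alternatives were upper-quartile and RLE factors, DESeq2 1.42.0, voom with limma 3.58.1 on TPM, no filter, a mean CPM of at least 10, a replicate block, near copies added, other sets of libraries in the fit, and leaving out each library. Python 3.11.15 was used for tables. The fits were tested on simulated data. No library was a copy of another, since the chi-square per gene between replicates was 36.8 to 111. Named genes are all 35 members, Tcf7, and listed related genes that passed in a genotype comparison. The members and lists were chosen with earlier results of these data known.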

Additional observations from a re-analysis of the deposited data

Results flagged for a closer look

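The difference between TCF-1 cKO and WT cells itself changed with transplant for 6 of the 35 genes (interaction over 12 libraries, edgeR's quasi-likelihood test, 3 libraries per group). The interaction was negative, on the log2 scale, for Hif1a (-2.37), Rpe (-2.80), Pdha1 (-1.51), Slc16a1 (-1.87) and Pfkp (-1.03), and positive for Rpia (1.92). Over all genes tested 28.6% had an adjusted p under 0.05. For Hif1a, Rpe, Pdha1 and Slc16a1 every TCF-1 cKO Pre-Tx library was above every WT Pre-Tx library in TPM, while the Post-Tx libraries of the genotypes overlapped. No test for an outlying library within a group was made, since groups had 3 libraries.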

How the results depend on the processing

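The counts of the 35 genes that passed changed with scaling, filtering and the model. Before transplant, TCF-1 cKO over WT gave 4 higher and 1 lower, and 2 and 11 with upper-quartile factors, 2 and 11 at a mean CPM of at least 10, and 2 and 0 with voom and limma. There were 0 lower with RLE factors, 2 lower with DESeq2 and 2 lower with near copies added. After transplant 0 higher and 1 lower became 0 lower with upper-quartile factors, with voom and limma, and in the fit of all 12 libraries, 1 and 0 at a mean CPM of at least 10, 3 lower with RLE factors, 4 lower with no filter, and 1 and 4 with DESeq2. For Post-Tx over Pre-Tx in TCF-1 cKO, 8 higher became 15 with upper-quartile factors and 14 at a mean CPM of at least 10, and in WT 4 lower became 7 and 8. The interaction gave 1 positive and 5 negative, and 2 and 2 with upper-quartile factors, 2 negative at a mean CPM of at least 10, and 0 positive with RLE factors, with voom and limma, and with no filter. Of the ratios 8 passed, and 5 with protein-coding transcripts only. Share of higher calls over all genes was 86.1% with upper-quartile factors and 52.9% without them after transplant, and 87.1% and 59.7% in the interaction. The cause of these changes was not tested.

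The labels do not say that replicate numbers pair the libraries. Correlations of the deviations of same-numbered libraries between groups ran from -0.272 to 0.248. The 2 of 18 over 0.1 were both between TCF-1 cKO Post-Tx and WT Post-Tx libraries (0.248 and 0.108), so a pairing there was not settled. With a replicate block there were 2 higher and 4 lower before transplant, where 12.1% of all genes were called. After transplant there were 1 higher and 11 lower, where 16.9% of all genes were called. The lower ones after transplant included Gapdh, Ldha, Eno1, Pkm and Aldoa (adjusted p of 0.0101 to 0.0333, edgeR). Leaving out 1 library gave 0 to 3 higher and 0 lower before transplant, 0 to 1 higher and 0 to 5 lower after it, 7 to 9 higher and 5 to 7 lower for transplant in TCF-1 cKO, 11 to 13 and 4 to 5 in WT, 0 to 1 positive and 4 to 5 negative interactions, and 4 to 7 ratios. No gene that passed as reported changed its direction under an alternative. Pgam1 passed in the interaction with voom and limma (-0.96) and had 0.0021 with upper-quartile factors. In all, 169 values of genes and 21 of ratios that passed neither as reported nor under the alternative changed sign. With 3 libraries a group, ratios between genotypes could not reach an exact p below 0.1.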
